A study of Mus musculus with 4 samples.

Results

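The genes described here build the contacts and the inner scaffold of epithelial cells: the claudins Cldn1, Cldn3, Cldn4, Cldn6 and Cldn7, the adhesion molecules Cdh1 and Epcam, and the keratins Krt8, Krt18 and Krt19. They were chosen by name, with the difference between the groups of arrays already known, and every probe whose platform annotation gives exactly such a symbol was taken. This gave 12 probes for 10 genes, out of 45281 probes and 19057 named genes on the array. Of the 12 probes, 10 were above background on at least 2 of 4 arrays, and 9 of the 10 genes could be tested, Epcam being the exception.

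Claudins are membrane proteins with 4 passes whose outer loops meet those of the neighbouring cell and close the gap between epithelial cells at the tight junction. Which claudins a cell makes sets how leaky that seal is and for which ions. E-cadherin, the product of Cdh1, holds the cells together just below the tight junction, and EPCAM is a surface protein that binds claudin-7. Keratins form filaments from pairs of a type II chain, such as KRT8, and a type I chain, such as KRT18 or KRT19, and they run through the cytoplasm to the desmosomes. In the yolk sac these proteins belong above all to the visceral endoderm, the absorptive epithelium that faces the maternal side, and keratins also mark the mesothelium and the neighbouring trophoblast and parietal endoderm.

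The samples were 4 mouse yolk sacs or pools of them, a point that is not specified, taken at embryonic day 9.5, all of strain C57BL/6. There were 2 samples labelled Flk1Cre;ETV2 CKO, in which, per the labels, a Cre recombinase named for the receptor gene Flk1 (now Kdr) was used to inactivate a loxP-flanked Etv2 in FLK1+ cells, and 2 labelled control. Etv2 is an ETS-family transcription factor gene needed for blood and endothelial cells. The signal columns name the control arrays WT and the ETV2 CKO arrays Mut. Whether WT means that the control embryos carried no Cre and no loxP alleles is not specified. Nothing says that 2 samples of a group came from separate embryos, so the spread within a group may be technical. Total RNA was hybridised to Illumina bead arrays, on which each probe is read as fluorescence.

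Between 17934 and 18798 probes were above background on an array, that is, had a detection p under 0.05. Etv2 itself did not go the way of the labels: its probe read 206 and 227 on the ETV2 CKO arrays, against 157 and 177 on the control arrays (raw intensity), a normalized log2 difference of 0.46 ± 0.10 (SE, n = 2 a group). It passed the limma test (adjusted p = 0.0199), but not on the authors' values, nor without either ETV2 CKO replicate or control replicate 1. Whether that probe lies in the deleted part is not known here, so every direction below rests on the labels of the libraries, and both Kdr probes were below background on all 4 arrays. All 16 visceral endoderm markers and all 9 erythroid markers with a probe were above background on at least 2 arrays, as yolk sac would have. So were 10603 of 19057 named genes, 6 of 11 trophoblast and 5 of 10 decidual markers with a probe. Detection alone thus does not tell yolk sac from adjoining tissue. Xist was higher on the ETV2 CKO arrays by 1.05 ± 0.10 and the Y-linked Eif2s3y lower by 0.73 ± 0.11 (log2, SE, n = 2 a group). Both were above background on all 4 arrays, so the groups differed in degree. The sex makeup of the samples and the group therefore cannot be told apart. In whole tissue, fewer cells of a type and less RNA per cell cannot be told apart either.

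To show the regulatory DNA of the genes whose signal was higher, beside a claudin whose signal was not, the RefSeq promoters (GRCm38.p6, 250 bases before to 50 bases after the annotated start, 5′ to 3′ on the gene's strand) of Cldn1, Cldn3, Cldn4, Krt8 and Cldn6 are given. Capitals mark every match, on either strand, to the E-box CACCTG (bound by SNAIL and ZEB factors), the Grainyhead site AACCGGTT, the ETS core CCGGAA, the AP-1 site TGACTCA and the TATA box TATAAA. Their positions are chr16:26371790-26372089 (minus strand) for Cldn1, chr5:134985964-134986263 (plus) for Cldn3, chr5:134946885-134947184 (minus) for Cldn4, chr15:102004293-102004592 (minus) for Krt8 and chr17:23679115-23679414 (plus) for Cldn6.
Cldn1: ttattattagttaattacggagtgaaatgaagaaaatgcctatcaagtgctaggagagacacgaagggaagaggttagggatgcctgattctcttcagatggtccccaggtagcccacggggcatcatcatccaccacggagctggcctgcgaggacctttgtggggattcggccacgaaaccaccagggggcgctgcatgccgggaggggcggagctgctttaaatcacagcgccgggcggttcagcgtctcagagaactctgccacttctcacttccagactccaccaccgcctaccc
Cldn3: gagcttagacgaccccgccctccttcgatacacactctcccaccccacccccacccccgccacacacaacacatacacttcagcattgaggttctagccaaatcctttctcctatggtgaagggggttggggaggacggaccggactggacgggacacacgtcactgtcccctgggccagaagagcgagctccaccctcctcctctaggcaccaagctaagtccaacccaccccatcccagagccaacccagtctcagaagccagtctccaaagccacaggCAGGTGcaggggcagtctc
Cldn4: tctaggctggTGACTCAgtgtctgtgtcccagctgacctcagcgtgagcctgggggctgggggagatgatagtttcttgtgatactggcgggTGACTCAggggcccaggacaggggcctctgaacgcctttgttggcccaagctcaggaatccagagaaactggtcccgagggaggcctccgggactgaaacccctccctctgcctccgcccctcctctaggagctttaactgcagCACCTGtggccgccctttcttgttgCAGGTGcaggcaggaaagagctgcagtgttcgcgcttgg
Krt8: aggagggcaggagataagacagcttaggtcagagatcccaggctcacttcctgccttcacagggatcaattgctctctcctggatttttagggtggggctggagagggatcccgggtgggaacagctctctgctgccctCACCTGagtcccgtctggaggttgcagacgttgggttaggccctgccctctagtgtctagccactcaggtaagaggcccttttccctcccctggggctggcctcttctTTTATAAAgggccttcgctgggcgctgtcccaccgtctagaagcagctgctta
Cldn6: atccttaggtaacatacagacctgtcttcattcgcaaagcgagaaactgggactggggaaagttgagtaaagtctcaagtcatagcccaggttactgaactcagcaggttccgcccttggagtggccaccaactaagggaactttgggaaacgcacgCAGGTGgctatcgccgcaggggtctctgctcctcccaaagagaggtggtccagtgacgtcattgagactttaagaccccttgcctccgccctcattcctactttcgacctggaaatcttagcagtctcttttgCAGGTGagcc

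The Cldn1 window held none of the 5 motifs. The E-box was present in 7 of the 8 members with an entry (Cldn3, Cldn4, Cldn6, Cldn7, Epcam, Krt8 and Krt18), Cldn1 being the exception. A member was counted if any of its promoters held the motif, and not both Cldn7 promoters did. Counted by promoter, which is not the same measure, 20.2% of all 32817 promoters of this length held it. Cldn4 alone among the 8 held TGACTCA, in 2 copies that begin at positions -240 and -158 from the start, against a share of 5.2% of all promoters. TGACTCA and TATAAA were added after the promoters had been read, so their presence in a member set against such a share tests nothing. The ETS core was found in both Cldn7 promoters and in no other member's, against 14.9% of all promoters, and AACCGGTT, held by 0.146%, was in none. Krt8 was the member with TATAAA (13.6% of all promoters), in a stretch where the forward and the reverse match overlap. These matches begin at positions -3 and -1, so they lie across the annotated start itself. The GC content of these windows was 56% for Cldn1, 60.7% for Cldn3, 61% for Cldn4, 58% for Krt8 and 52.3% for Cldn6, with a median of 52.7% over all promoters. The matches are letters in a window and say nothing of binding.

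Cldn1 had by far the widest gap between the groups of the 9 measured members. Its raw intensity was 681 and 863 on the ETV2 CKO arrays, against 210 and 232 on the control arrays, with a detection p of 0 on all 4. After background correction and normalization the log2 values were 9.25 and 9.43 on the ETV2 CKO arrays, against 7.10 and 7.13 on the control arrays. Both ETV2 CKO arrays thus stood far above both control arrays, and the gap within a group was 0.18 on the ETV2 CKO side and 0.03 on the control side. The difference was 2.23 ± 0.10 on the log2 scale (SE of the limma fit, n = 2 a group), or 4.68-fold, the 10th largest increase of 10603 tested genes. The values were those by which the genes were chosen, so the members' differences are given as descriptions, with no p-value. The size of the Cldn1 difference depended on the background: it was 1.29 on the authors' processed values, which keep the background in, and between 1.61 and 2.32 in the other 13 settings. On the raw scale the ratio of the group means was 3.50.

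Cldn3 and Cldn4, sealing claudins that lie next to each other on mouse chromosome 5 with Mettl27 on the other side of Cldn4, were also higher on the ETV2 CKO arrays, by less. Cldn3 read 8.42 and 8.29 on the ETV2 CKO arrays, against 7.57 and 7.63 on the control arrays (normalized log2 intensity), a difference of 0.76 ± 0.10 or 1.69-fold. Its difference was 0.40 on the authors' values. Cldn4 read 9.75 and 9.74 on the ETV2 CKO arrays, against 9.28 and 9.24 on the control arrays, a difference of 0.48 ± 0.09 or 1.40-fold (SE, n = 2 a group). In both genes the groups did not overlap. The tested neighbours outside the pair, Mettl27 at 0.12 ± 0.13 and Abhd11 at -0.17 ± 0.10, did not pass the test (limma, adjusted p of 0.05).

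Cldn6, a claudin of early embryonic epithelia, and Cldn7, the partner of EPCAM, showed no difference beyond the spread of the arrays. Cldn6 read 13.58 and 13.69 on the ETV2 CKO arrays, against 13.64 and 13.55 on the control arrays, with overlapping groups and a difference of 0.04 ± 0.10. Its raw intensities were 12332 and 14156 on the ETV2 CKO arrays, against 12087 and 12165 on the control arrays. Cldn7 read 8.70 and 8.61 on the ETV2 CKO arrays, against 8.67 and 8.51 on the control arrays, again overlapping, with a difference of 0.06 ± 0.10. The sign of both differences turned when single arrays were left out, with ranges of -0.01 to 0.10 for Cldn6 and -0.02 to 0.14 for Cldn7.

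Set against the other 4 claudins, Cldn1 stood apart in size. The median difference of Cldn3, Cldn4, Cldn6 and Cldn7 was 0.27, and the Cldn1 difference exceeded it by 1.95 ± 0.14 on the log2 scale (SE from the array values of the contrast, n = 2 a group). Taken singly, the Cldn1 difference was larger than that of Cldn3 by 1.47 ± 0.15, of Cldn4 by 1.74 ± 0.11, of Cldn7 by 2.17 ± 0.17 and of Cldn6 by 2.18 ± 0.07. The Cldn6 signal, 13.55 to 13.69 over the arrays, lay near that of the brightest cell type marker. That marker, Hba-a1, read 14.50 on both ETV2 CKO arrays and 14.53 on both control arrays. A Cldn6 rise as large as that of Cldn1 would have passed that reading, and whether signal saturated was not tested. The excess over the median stayed positive in all 14 alternative settings, from 1.07 on the authors' values to 2.03 without ETV2 CKO replicate 1. This contrast is the one for which the claudins were set out, and it is given as a description.

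**Figure D1:**
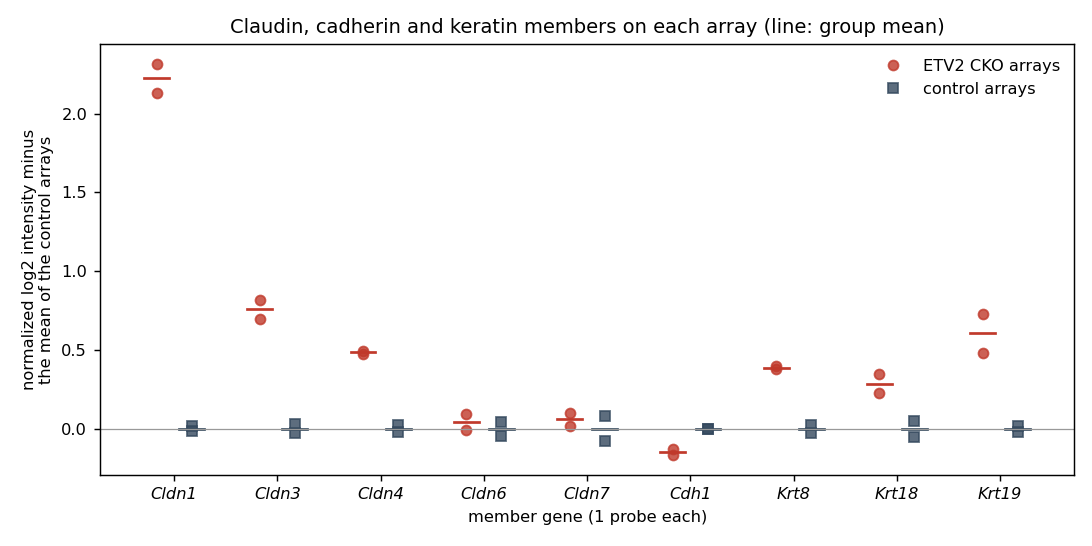
Normalized log2 intensity of the 9 measured members on each array, minus the mean of the 2 control arrays of the same gene, with ETV2 CKO arrays as circles, control arrays as squares and a line at each group mean. Both ETV2 CKO arrays lie more than 2 log2 units above the control arrays for Cldn1, while the groups overlap for Cldn6 and Cldn7 and Cdh1 lies slightly below the control arrays.

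Among the adhesion molecules, the 2 kept probes of Cdh1 stood close to 0 and differed in sign. The brighter Cdh1 probe read 11.22 and 11.26 on the ETV2 CKO arrays, against 11.39 and 11.39 on the control arrays (normalized log2 intensity). Although these did not overlap, the difference was only -0.15 ± 0.09 (SE, n = 2 a group), between -0.17 and -0.06 over the 14 alternative settings. A second, dim Cdh1 probe, above background on 3 of the 4 arrays, stood at 0.03 ± 0.17. The Epcam probe was below background everywhere, with raw intensities of 113 and 115 on the ETV2 CKO arrays, against 103 and 103 on the control arrays, and detection p-values between 0.275 and 0.644. No level and no difference of Epcam can therefore be given. Cdh3, which encodes P-cadherin and is the gene next to Cdh1 on chromosome 8, stood at 0.11 ± 0.09 and did not pass.

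The differences of the 3 keratins were positive and smaller than that of Cldn1. Krt8, the type II chain of simple epithelia, read 13.60 and 13.62 on the ETV2 CKO arrays, against 13.20 and 13.25 on the control arrays, a difference of 0.39 ± 0.09 or 1.31-fold (SE, n = 2 a group). A second Krt8 probe was below background on all 4 arrays. Krt18, its type I partner and next neighbour on chromosome 15, read 12.58 and 12.46 on the ETV2 CKO arrays, against 12.18 and 12.28 on the control arrays, a difference of 0.29 ± 0.10 or 1.22-fold. Its groups did not overlap, and its difference ran from 0.23 to 0.35 over the 14 alternative settings. Eif4b, the gene on the far side of Krt18, stood at -0.31 ± 0.10 and did not pass either. Krt19, a type I keratin of simple epithelia whose chain lacks most of the tail, read 9.23 and 8.98 on the ETV2 CKO arrays, against 8.48 and 8.52 on the control arrays. Its difference of 0.61 ± 0.11 (1.52-fold) was the largest of the 3, and its ETV2 CKO arrays were the least alike, 0.25 apart.

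Counted over the 9 measured members, 5 lay past the array-wide cut-off on the higher side (Cldn1, Cldn3, Cldn4, Krt8 and Krt19), a limma adjusted p under 0.05 used here only to describe them. On the lower side 0 did, and 4 lay short of it (Cldn6, Cldn7, Cdh1 and Krt18). Over all 10603 genes tested 14.4% were higher by that rule and 10.8% lower. As the members were picked with this contrast in view, the count is no test of them and nothing is read from their share. The groups did not overlap for 7 of the 9, beside 65.4% of all tested genes. At least 2-fold higher and past the cut-off was 1 member, Cldn1, beside 1.3% of all tested genes, and 0 were at least 2-fold lower, beside 0.726%. The median difference was 0.39 for the members and 0.02 for all tested genes. Leaving out single arrays lowered the count to 2 (Cldn1 and Cldn3) without ETV2 CKO replicate 1, 3 (Cldn1, Cldn3 and Krt19) without ETV2 CKO replicate 2 or without control replicate 2, and 4 (those 3 and Cldn4) without control replicate 1. The count was 6, with Krt18 added, without background correction, with an intensity trend and robust prior, with an offset of 50 and on the authors' values, where Cdh1 also lay past the cut-off on the lower side. Of all calls 57.2% were higher, and 70.3% under median scaling, where the count of members was again 5.

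**Figure D2:**
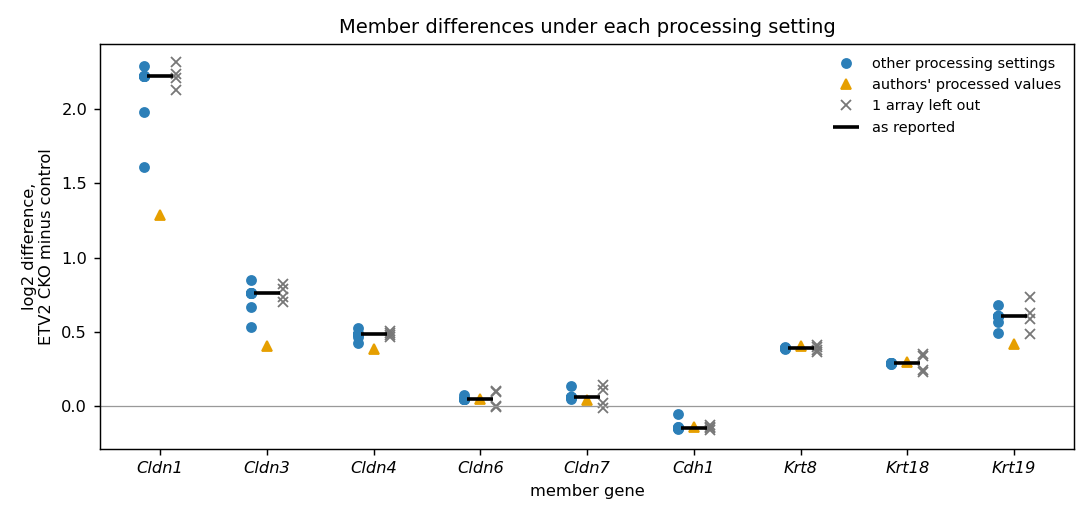
Log2 difference, ETV2 CKO minus control, of each measured member under every processing setting, with the reported value as a black bar. Cldn1 keeps the largest difference throughout, from 1.29 on the authors' processed values to 2.32 without ETV2 CKO replicate 1, while Krt8 stays between 0.36 and 0.41.

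Of the neighbours by gene order, P3h2, a collagen prolyl hydroxylase gene next to Cldn1 on chromosome 16, rose by 0.53 ± 0.09 (limma adjusted p = 0.00914, n = 2 a group). The other nearest tested genes around Cldn1, Lpp at -0.01 ± 0.13, Ccdc50 at -0.04 ± 0.10 and Mb21d2 at -0.04 ± 0.09, did not pass. Cldn16, which adjoins Cldn1 on the other side, was below background. Cldn9, next to Cldn6 on chromosome 17, stood at -0.21 ± 0.13 and did not pass, while Hcfc1r1, 2 places from Cldn6 on its other side, rose by 0.43 ± 0.10.

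The tested genes whose values over the 4 arrays were most like those of Cldn1, by the Euclidean distance of log2 values centred on each gene's mean, were Igfbp3 (distance 0.12), the zinc transporter gene Slc30a2 (0.16), the ion pump regulator gene Fxyd3 (0.24), the cholesterol hydroxylase gene Ch25h (0.24) and the BMP-binding protein gene Bmper (0.27). Igfbp3, whose product carries insulin-like growth factors in body fluids, read 10.53 and 10.55 on the ETV2 CKO arrays, against 8.30 and 8.39 on the control arrays. Ch25h and Bmper were below background on both control arrays and were at least 3.48-fold and 3.79-fold higher on the ETV2 CKO arrays. With 4 arrays in 2 groups, likeness of this kind means little more than a similar difference.

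Of the further claudins 1 passed the test, with small differences throughout, from -0.21 to 0.33. Of 24 listed claudin-family genes outside the members, 18 had a probe and 7 were above background. Of these 1 rose, 0 fell and 6 did not pass the test, with 14.3% past it, beside 25.2% of all tested genes. Cldn15, a pore-forming claudin of the gut, rose by 0.33 ± 0.09 (limma adjusted p = 0.0453), a call that was lost in 10 of 14 settings, including each with an array left out. Cldn2, another pore-forming claudin, at 0.27 ± 0.10, the endothelial claudin gene Cldn5 at 0.30 ± 0.11 and Cldn12 at 0.24 ± 0.10 did not pass. At an unadjusted p under 0.05 there were 4 of the 7. That share was not counted over all genes for this list or those below, so nothing is read from such counts. The groups did not overlap for 6, beside 65.4% of all tested genes. The count of higher claudins was 4 without background correction and with an intensity trend and robust prior, 3 on the authors' values, 2 with an offset of 50, and 0 with no filter on dim probes, under the replicate block and without each single array. The family's median difference was 0.27, beside 0.02 for all tested genes.

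Other keratins went both ways. Of 37 listed, 36 had a probe and 9 were tested, of which 3 rose, 1 fell and 5 did not pass. The share past the test was 44.4%, beside 25.2% of all tested genes. Krt23 read 7.61 and 7.51 on the ETV2 CKO arrays, against 6.66 and 6.69 on the control arrays, and rose by 0.88 ± 0.09. Krt20, an intestinal-type keratin, rose by 0.83 ± 0.10, and Krt7, a keratin of simple and ductal epithelia, by 0.68 ± 0.09. Krt14, the keratin of the basal layer of stratified epithelia, read 6.02 and 5.90 on the ETV2 CKO arrays, against 6.84 and 6.81 on the control arrays, and fell by 0.86 ± 0.10. All 4 had limma adjusted p-values between 0.00258 and 0.00458, and each call was kept in all 14 settings. Krt5, the usual partner of Krt14, was below background.

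**Figure D3:**
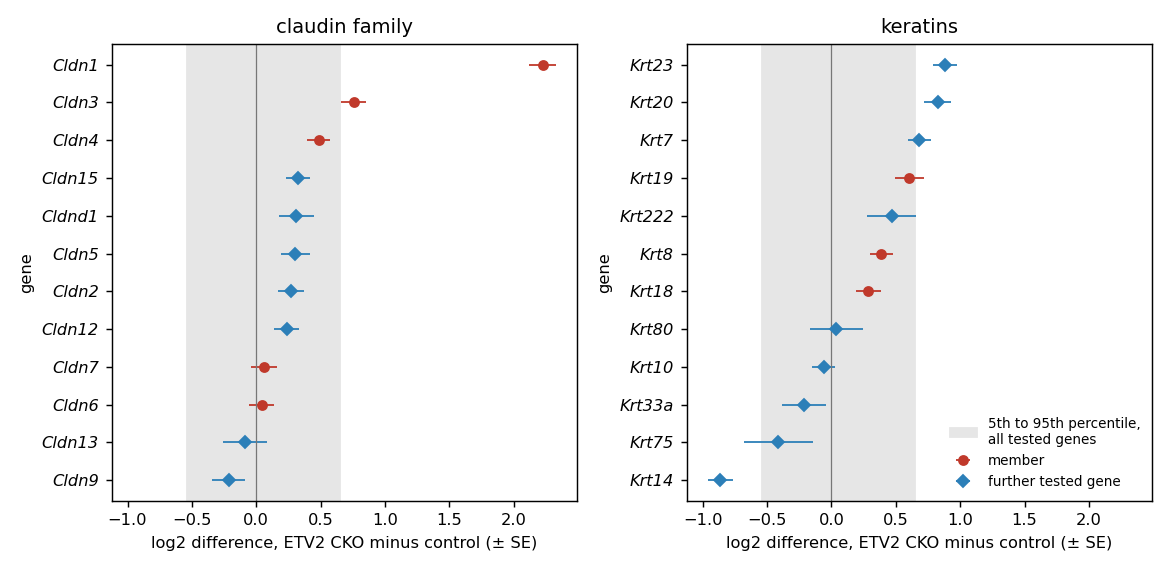
Log2 difference, ETV2 CKO minus control, with its standard error for members (circles) and further tested genes (diamonds) of the claudin family and the keratins, on a grey band from the 5th to the 95th percentile of all tested genes (-0.54 to 0.65). Cldn1 and Cldn3 lie above the band among the claudins, and Krt23, Krt20 and Krt7 above it and Krt14 below it among the keratins.

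Genes that work beside the claudins at the tight junction were mixed. Of 30 listed, 24 were tested, 6 rose, 2 fell and 16 did not pass (limma, adjusted p under 0.05). The share past the test was 33.3%, beside 25.2% of all tested genes. Ocln, which encodes the junction protein occludin, read 8.50 and 8.60 on the ETV2 CKO arrays, against 7.77 and 7.77 on the control arrays, and rose by 0.78 ± 0.09. Amotl2, an angiomotin-like scaffold gene, rose by 1.05 ± 0.10, and Cxadr, which encodes the coxsackievirus and adenovirus receptor of the junction, by 0.77 ± 0.11. Of the 3 Cxadr probes above background, the dimmest stood at -0.13. The scaffold genes Mpdz and Patj and the polarity kinase gene Prkcz rose by 0.59 ± 0.13, 0.46 ± 0.09 and 0.49 ± 0.11. All 3 lost that call without ETV2 CKO replicate 1. Mpdz also lost it without control replicate 1, Prkcz and Patj without control replicate 2, and Patj without ETV2 CKO replicate 2. With probes averaged Patj and Prkcz lost the call, and Mpdz lost it without background correction, at 0.18, and on the authors' values, at 0.10. Pard6b, a partner of that kinase, fell by 0.55 ± 0.14 and Sympk, which also serves messenger RNA end processing, by 0.41 ± 0.11. Both lost the call without ETV2 CKO replicate 2 and without control replicate 1, Pard6b also without ETV2 CKO replicate 1 and Sympk also without control replicate 2. Pard6b lost it too without background correction, at -0.16, on the authors' values, at -0.09, and with dim probes left in, and Sympk with no filter and under median scaling. Patj, Prkcz, Pard6b and Sympk were named after their values were seen, as were Muc1 and Grhl1 further on. Tjp1, which encodes the scaffold ZO-1, at 0.40 ± 0.15, F11r at -0.04 ± 0.10 and Crb3 at 0.00 ± 0.09 did not pass.

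At the adherens junction, where cadherins bind catenins, 0 of 14 tested genes passed the limma test, beside 25.2% of all tested genes. At an unadjusted p under 0.05 there were 3, a count with no share over all genes beside it, so nothing is read from it. The settings with an intensity trend and without background correction called 2 each, 1 was called on the authors' values, with an offset of 50, under the replicate block and without control replicate 2, and the differences ran from -0.13 to 0.38. The catenin genes Ctnna1 at 0.27 ± 0.09 and Ctnnb1 at 0.06 ± 0.12, whose products tie E-cadherin to actin, and Ctnnd1 at 0.10 ± 0.09, whose product p120-catenin stabilises E-cadherin at the membrane, did not pass. Among 7 tested desmosome genes Pkp3, a plakophilin gene, rose by 0.68 ± 0.11 (limma adjusted p = 0.00767). The other 6 did not pass, among them Pkp2 at 0.17 ± 0.10 and Dsg2 at -0.11 ± 0.11, so 14.3% of that list passed.

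Of 22 tested genes of the epithelial surface, 2 rose, 3 fell and 17 did not pass, with 22.7% past the test, beside 25.2% of all tested genes. The count of higher genes was 9 without background correction and 7 with an intensity trend, with an offset of 50 and on the authors' values. Cdhr5, a protocadherin of the microvilli, rose by 0.82 ± 0.10 and Itgb4, the integrin of hemidesmosomes, by 0.65 ± 0.16. The Itgb4 call was lost without ETV2 CKO replicate 1, without control replicate 2 and with no filter on dim probes. Tspan8, a tetraspanin gene, read 10.37 and 10.60 on the ETV2 CKO arrays, against 11.43 and 11.48 on the control arrays, and fell by 0.97 ± 0.11. Spint2, which encodes an inhibitor of the membrane proteases that cut EPCAM, fell by 0.67 ± 0.14, and the mucin gene Muc1 fell by 0.56 ± 0.11, with all 4 of its probes between -0.56 and -0.31. Both of these lost the call without ETV2 CKO replicate 2 and without control replicate 1. The protease genes St14 at -0.11 ± 0.10 and Prss8 at 0.05 ± 0.09 and the related inhibitor gene Spint1 at 0.25 ± 0.09 did not pass.

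Epithelial transcription factor genes included 2 of the widest differences on these lists. Foxa1, a forkhead factor of endoderm, read 7.96 and 8.11 on the ETV2 CKO arrays, against 6.52 and 6.53 on the control arrays, and rose by 1.51 ± 0.10. Klf4 rose by 1.21 ± 0.09 and Klf5 by 0.68 ± 0.09, both Krüppel-like factors of epithelia. Elf3, an epithelial factor of the ETS family, rose by 0.48 ± 0.10, although the dimmest of its 3 probes stood at -0.30 and the call was lost with probes averaged, without either ETV2 CKO replicate and without control replicate 2. Grhl1, a Grainyhead-like factor, fell by 0.32 ± 0.09, a call lost in 11 of 14 settings, among them each with an array left out. Grhl2 at 0.36 ± 0.15, Ovol2 at -0.23 ± 0.16 and the splicing factor genes Esrp1 at 0.16 ± 0.10 and Esrp2 at 0.05 ± 0.09 did not pass. Of the 15 tested genes 10 did not, and the 33.3% that passed stood beside 25.2% of all tested genes.

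Genes of the mesenchymal state were followed because several of their products repress Cdh1 and claudins. Of 9 tested, 3 rose, 0 fell and 6 did not pass (limma), with 33.3% past the test, beside 25.2% of all tested genes. At an unadjusted p under 0.05 there were 5 in either direction, with no share over all genes beside it, so nothing is read from that count. The count of higher genes was 6 with an intensity trend and with an offset of 50, 5 without background correction, and 1 without ETV2 CKO replicate 1. Snai1, which encodes the E-box-binding repressor SNAIL, read 8.12 and 8.01 on the ETV2 CKO arrays, against 6.96 and 7.20 on the control arrays, and rose by 0.98 ± 0.12 (adjusted p = 0.00322). Twist2 rose by 0.57 ± 0.10, a call lost without ETV2 CKO replicate 1. Prrx1 was below background on both control arrays and rose at least 1.18-fold, a call lost in 6 of 12 settings, 3 of them with an array left out (ETV2 CKO replicate 1 and each control replicate). Prrx1 was kept only through the ETV2 CKO arrays, so the filter favoured its direction and its call is no support for a rise. Snai2 at 0.34 ± 0.15, Zeb1 at 0.32 ± 0.10, Vim at 0.31 ± 0.10 and Zeb2 at -0.15 ± 0.14 did not pass.

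Over the union of these 8 lists, 107 genes were tested. Of these, 20 rose (Prrx1, kept only through the ETV2 CKO arrays, among them), 7 fell and 80 did not pass. That is 25.2% past the test, beside 25.2% of all 10603 genes, the same share. Their median difference was 0.12, beside 0.02. Of the 27 genes that passed, 14 kept the call in every setting that tested them, 13 lost it in at least 1, and 0 changed sign. The sizes of dim genes shrank where background was kept in: on the authors' values Foxa1 stood at 0.62, Snai1 at 0.45, Ocln at 0.44, Klf4 at 0.38, Krt23 at 0.33, Amotl2 at 0.32, Pkp3 at 0.24 and Krt14 at -0.23 (log2 difference), each still past the test. P3h2 stood at 0.30 there.

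**Figure D4:**
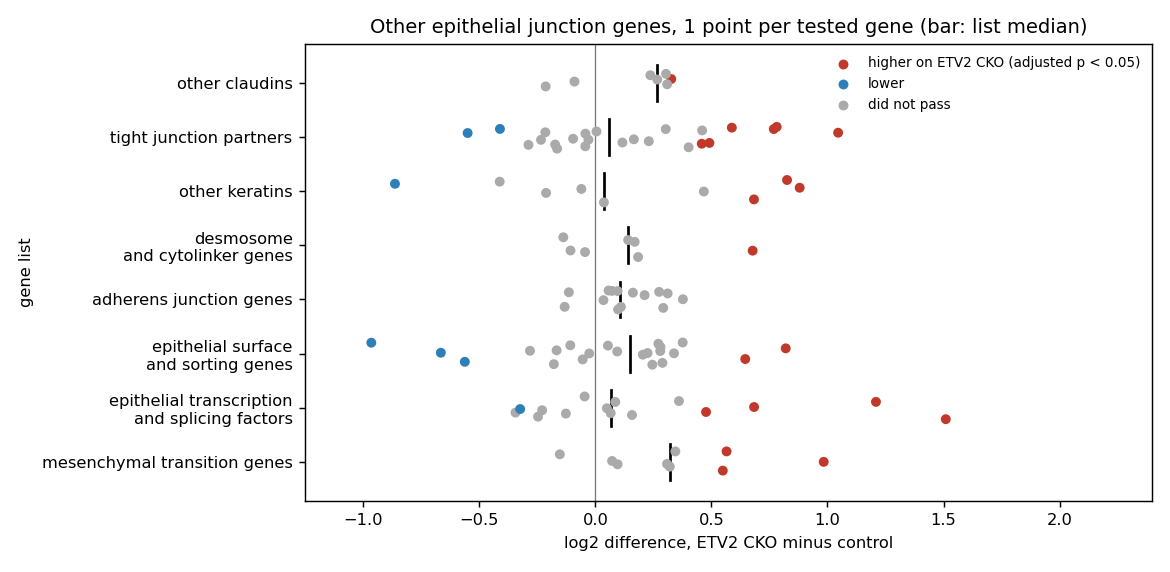
Log2 difference, ETV2 CKO minus control, of every tested gene of the 8 further lists. These hold epithelial transcription factor and mesenchymal genes beside junction genes. Points are red for genes that were higher, blue for lower and grey for those that did not pass, with a bar at each list's median. Points of both colours stand in 4 lists, and the adherens junction list holds grey points only.

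Markers of the epithelia that could carry these transcripts moved unevenly with the groups. Of 16 visceral endoderm markers, all tested, 1 rose (Ihh, by 0.63 ± 0.10) and 15 did not pass, and their summed normalized signal was 148940 and 150319 on the ETV2 CKO arrays, against 150451 and 150758 on the control arrays. Of 12 parietal endoderm markers, all tested, 11 rose and 1, Thbd, did not pass, beside 14.4% of all tested genes that were higher. The summed signal of the 12 was 32470 and 33190 on the ETV2 CKO arrays, against 18790 and 18911 on the control arrays. Snai1 is among them, as is Fst, which was below background on both control arrays and was kept only through the ETV2 CKO arrays. The marker lists were chosen with earlier results of these data known, so the counts are no test. Of 11 trophoblast markers with a probe, 3 rose, 1 fell, 2 did not pass and 5, Tpbpa and Ascl2 among them, were below background, with sums of 2550 and 2738 on the ETV2 CKO arrays, against 1683 and 1688 on the control arrays. Over all tested genes 14.4% were higher and 10.8% lower, the shares to set beside the trophoblast and decidual counts. Uterine and decidual markers gave 4 higher, 1 lower (Muc1) and 5 below background, Ltf, Pgr and Esr1 being among the last. Their sums were 5054 and 5473 on the ETV2 CKO arrays, against 3370 and 3570 on the control arrays. Most of that gap came from Dcn, at 11.57 and 11.79 on the ETV2 CKO arrays, against 10.78 and 10.96 on the control arrays (normalized log2 intensity). Most of the gap between the trophoblast sums came from Prl2c2, at 9.63 and 9.87, against 6.83 and 6.86 in the same order. Prl8a2, counted as higher in both lists, was below background on both control arrays and was kept only through the ETV2 CKO arrays. What part these cell types had in the claudin and keratin differences was not tested.

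Mesothelial markers, 6 tested of 8 with a probe, gave 1 higher, 1 lower and 4 that did not pass, with sums of 4546 and 4871 on the ETV2 CKO arrays, against 4435 and 4916 on the control arrays, and Msln and Lrrn4 below background. Of 10 surface ectoderm and amnion markers, 7 were below background, including Krt5, Trp63 and Tfap2a, and 2 of the 3 tested, Krt14 and Dlx3, fell. Their sums were 170 and 188 on the ETV2 CKO arrays, against 268 and 278 on the control arrays. Endothelial markers gave 1 higher and 3 lower of 9 tested, and erythroid markers 5 lower of 9. Over all tested genes 14.4% were higher and 10.8% lower. The 4 erythroid markers that did not pass were the globin genes Hba-a1, Hba-x, Hbb-bh1 and Hbb-y, which read 14.31 to 14.53 on the arrays. Whether their signal saturated was not tested. The other 5 fell, Klf1 by 1.19 ± 0.10, Gata1 by 1.16 ± 0.11, Epor by 0.67 ± 0.12, Slc4a1 by 0.54 ± 0.10 and Alas2 by 0.51 ± 0.09 (log2, SE, n = 2 a group).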

How the data were processed

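RNA of 4 mouse yolk sac samples, 2 labelled ETV2 CKO and 2 control, was measured on Illumina bead arrays. The authors deposited raw probe intensities, not background-subtracted as judged from the values, with a detection p-value beside each, per the file headers, and a processed table of intensity on a linear scale with equal column distributions, used as an alternative. The submitters' processing notes list lumi 2.15.1 with no role. Probes were named from the platform annotation.

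Raw signals were processed with neqc of limma 3.58.1 (R 4.3.3), which removes the background inferred from detection p, adds an offset of 16, quantile-normalizes and takes log2. Probes with detection p under 0.05 on at least 2 arrays were kept, and the brightest probe (mean of 4 arrays) stood for a gene. Group differences were tested 2-sided with lmFit and eBayes, Benjamini-Hochberg adjusted over 10603 genes, threshold 0.05, with 6.54 degrees of freedom. With 2 arrays against 2, an exact permutation p cannot go below 0.333, and the number of arrays limits the precision. The fit was also run on simulated data with independent noise between arrays. That run checks the code and says nothing of the error rate of these calls.

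Where a gene was below background on both arrays of a group, its fold is a bound: the bright group's mean against the higher of the lowest signal above background and the probe's own. Such a gene (Prrx1, Fst, Prl8a2, Ch25h and Bmper here) passed the filter only through its bright group. The filter therefore favoured its direction. Offset and background pull differences of dim genes towards 0. Whether the brightest signals, Cldn6 and several visceral endoderm markers among them, were held down by saturation was not tested. The cut-off describes the members and does not test them. The members and gene lists were chosen with earlier results of these data known. Named from each list were up to 4 genes of largest difference past the test with groups apart, the others named being members, neighbours, small counts or examples that did not pass, picked with values seen. The TGACTCA and TATAAA motifs were added after the promoters had been read. Protein sequences were not used here. Listed names without a probe were not analysed here, and 3 were matched through RefSeq synonyms. Replicate numbers were taken from the titles, and same-numbered arrays did not deviate together clearly (correlation over genes of 0.0665).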

Additional observations from a re-analysis of the deposited data

How the results depend on the processing

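Each result was recomputed under 14 alternatives. The genes of all lists together are called listed junction genes here, although the lists of transcription factors and of mesenchymal genes hold other genes. Without background correction 35 listed junction genes were higher (20 as reported), 36 with an intensity trend and robust prior, and 33 with an offset of 50, while with no filter on dim probes 4 were lower (7 as reported). The excess of Cldn1 over the median of the other claudins, 1.95, was 1.07 on the authors' values, 1.72 with an offset of 50 and 1.38 with no background removed, 3 settings that add or leave in a constant signal. Median scaling lowered the count of lower genes over the whole array from 1144 to 649. Leaving out 1 array gave 545 to 671 lower and 751 to 1013 higher genes (1144 and 1527 as reported), 2 to 5 lower and 12 to 19 higher listed junction genes, and an excess of Cldn1 of 1.84 to 2.03. In these fits the lone array of a group is assumed to vary like the other group's. The cause of the changes in calls was not tested beyond the smaller number of arrays. With the replicate number as a block, a fit without support in the labels, 6 listed junction genes were lower and 22 higher, the Cldn1 excess was 1.95, and 5 members were higher. Signal near background limits Epcam, the second Krt8 and Cdh1 probes and most of the other keratins and claudins, of which 27 and 11 with a probe were not above background.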
